A study of Mus musculus with 9 samples.

Results

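The 10 genes described here belong to the unfolded protein response and the ATF4 stress response, and were chosen by name among the 22609 genes of the count tables: Atf4, Ddit3, Trib3, Chac1, Asns, Psat1, Phgdh, Xbp1, Hspa5, and Herpud1. RNA-seq was done on tumors of 4T1 cells, a triple-negative mouse mammary carcinoma line, grown in the mammary fat pads of BALB/c mice. The LFD group ate a diet with 10% of its calories from fat and did not receive EC359. The HFD group ate a diet with 60% of its calories from fat and received vehicle, and the HFD + EC359 group ate the HFD and received EC359, a small-molecule inhibitor of the leukemia inhibitory factor receptor (LIFR). The methods give 500000 cells injected after 6 weeks on the diet. A figure legend for this model gives EC359 at 5 mg/kg intraperitoneally on 5 days per week and does not name the vehicle. The methods name hydroxy propyl cellulose as the vehicle for xenografts of a human line in SCID mice. Each group had 3 libraries, and the labels give no mouse, age, sex, or batch. They number the replicates without saying whether these are 3 separate tumors. All tumors came from a single cell line, and whole tumors also hold host cells, although the labels name the 4T1 cell line as the tissue.

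The endoplasmic reticulum (ER) folds secreted and membrane proteins, and unfolded protein activates the sensors PERK, IRE1, and ATF6 in its membrane. PERK and 3 other kinases that sense amino acid lack, double-stranded RNA, or heme lack phosphorylate the translation factor eIF2, which lowers protein synthesis and raises translation of the ATF4 mRNA. ATF4 drives genes for amino acid synthesis and transport and, with prolonged stress, DDIT3 (CHOP), TRIB3, and CHAC1. IRE1 splices the Xbp1 mRNA, and XBP1 and ATF6 drive chaperones such as HSPA5 (BiP) and the degradation of misfolded protein, in which HERPUD1 takes part. Much of this control acts on translation and splicing. The gene counts measure neither, and they do not separate the spliced from the unspliced Xbp1 mRNA.

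The promoters of all 10 genes were found in RefSeq on GRCm38.p6, and Psat1 had 2. Each window runs from 250 bases before the annotated start to 50 bases after it. Both strands were searched for TGATGNAA, the element bound by ATF4 with C/EBP proteins, for the ER stress element (CCAAT, 9 bases, CCACG), for ER stress element II (ATTGG, 1 base, CCACG), and for the XBP1/ATF6 element TGACGTG. Of 32851 promoters of this length, 3.97% held the first, 0.119% the ER stress element, 0.0365% element II, and 2.01% TGACGTG. TGATGNAA was present in the promoters of Trib3, Asns, Chac1, and Herpud1, the ER stress element and TGACGTG in that of Hspa5, and element II in that of Herpud1. The windows of Atf4, Ddit3, Xbp1, Psat1, and Phgdh held no match, which says only that these letters are not in these windows. The 5 promoters with a match are shown because they place the amino acid and feedback targets beside the ER chaperone and degradation genes. They lie at chr2:152344011-152344310 (minus strand), chr6:7693160-7693459 (minus strand), chr2:119350992-119351291 (plus strand), chr8:94386179-94386478 (plus strand), and chr2:34771840-34772139 (plus strand). Each is written 5′ to 3′ along its gene, with matches in capitals, so that a match on the other strand appears as its reverse complement.
Trib3: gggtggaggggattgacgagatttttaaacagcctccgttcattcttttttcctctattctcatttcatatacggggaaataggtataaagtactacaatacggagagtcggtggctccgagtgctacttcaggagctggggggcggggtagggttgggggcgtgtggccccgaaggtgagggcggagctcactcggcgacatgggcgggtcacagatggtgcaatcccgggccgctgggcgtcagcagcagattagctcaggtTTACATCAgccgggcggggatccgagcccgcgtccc
Asns: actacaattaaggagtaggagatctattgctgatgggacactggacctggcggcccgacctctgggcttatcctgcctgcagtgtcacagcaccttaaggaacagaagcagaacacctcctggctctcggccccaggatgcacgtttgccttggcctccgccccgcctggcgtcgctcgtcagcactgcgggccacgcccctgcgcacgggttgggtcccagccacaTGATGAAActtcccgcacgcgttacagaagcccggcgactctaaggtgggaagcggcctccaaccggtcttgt
Chac1: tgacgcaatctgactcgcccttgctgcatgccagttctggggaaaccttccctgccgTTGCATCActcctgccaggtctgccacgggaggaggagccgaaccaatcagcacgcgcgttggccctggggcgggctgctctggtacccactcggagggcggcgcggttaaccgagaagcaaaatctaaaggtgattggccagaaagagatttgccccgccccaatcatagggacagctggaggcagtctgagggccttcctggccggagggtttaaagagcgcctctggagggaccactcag
Herpud1: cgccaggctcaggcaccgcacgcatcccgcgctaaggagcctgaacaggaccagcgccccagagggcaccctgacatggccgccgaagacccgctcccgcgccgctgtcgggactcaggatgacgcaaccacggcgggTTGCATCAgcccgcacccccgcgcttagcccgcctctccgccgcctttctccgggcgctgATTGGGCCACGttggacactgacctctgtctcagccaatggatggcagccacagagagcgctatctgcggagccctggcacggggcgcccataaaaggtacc
Hspa5: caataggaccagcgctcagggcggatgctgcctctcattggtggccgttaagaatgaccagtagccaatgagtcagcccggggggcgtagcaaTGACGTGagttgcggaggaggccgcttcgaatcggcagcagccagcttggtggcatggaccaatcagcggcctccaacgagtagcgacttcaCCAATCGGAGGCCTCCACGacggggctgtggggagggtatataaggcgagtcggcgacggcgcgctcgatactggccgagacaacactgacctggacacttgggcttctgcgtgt
Counted from the annotated start, the TGATGNAA match stood at bases -23 to -16 in Asns. It was on the opposite strand at bases -193 to -186 in Chac1, -112 to -105 in Herpud1, and 15 to 22 in Trib3. The ER stress element of Hspa5 spanned bases -65 to -47 and its TGACGTG bases -157 to -151, and element II of Herpud1 spanned bases -52 to -42. No match overlapped another, and a match is a run of letters, not a measured binding site.

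**Figure D1:**
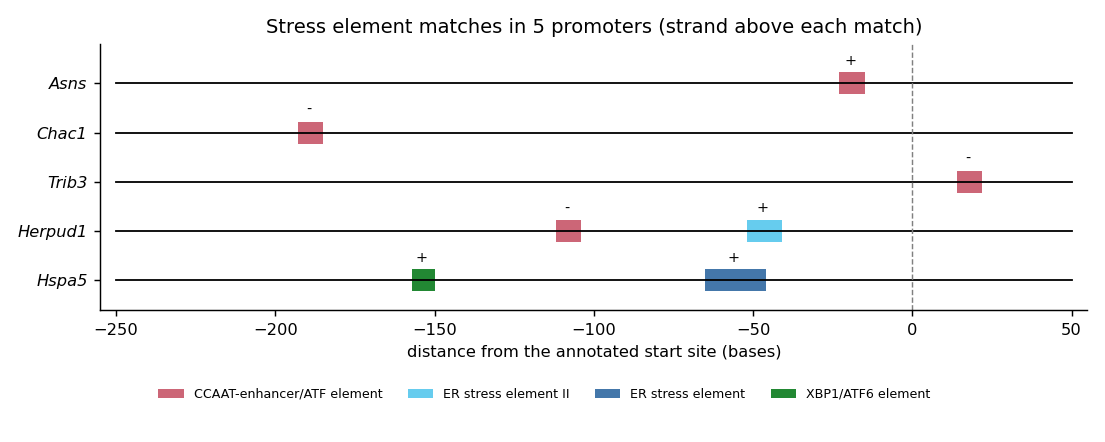
Positions of the element matches (colored boxes, with the strand relative to the gene above each) in the 5 promoters, on an axis of bases from the annotated start (dashed line). The matches of Asns, Chac1, and Hspa5 lie before the start, as do both of Herpud1, and that of Trib3 lies after it.

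Levels are given as CPM, the share of a gene in the library total scaled by trimmed mean of M-values (TMM) factors and by 1000000. Fold changes, standard errors (SE), and adjusted p-values came from edgeR's quasi-likelihood fit over all 9 libraries, with Benjamini-Hochberg adjustment over the 13366 genes that passed a filter on low counts. A gene was called at an adjusted p under 0.05. All 10 genes passed the filter. Library totals were 5085357 to 6509130 counts in the LFD group, 7314704 to 7922852 in the HFD group, and 8043649 to 9751201 in the HFD + EC359 group. Depth thus differed between the groups without overlap. At these totals 3 counts equal 0.308 to 0.59 CPM, and the lowest level among the 10 genes was 6.28 CPM for Chac1 in an HFD library. The chi-square per gene between replicates was 1.36 to 3.02, so no library was a copy of another. This does not show that the libraries came from separate tumors. The common coefficient of variation between libraries of a group, which edgeR names biological, was 3.63%. The SE and adjusted p-values rest on this spread between libraries, which may not be that between tumors or mice.

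Between the diets, the amino acid synthesis genes and Trib3 were lower in the HFD group and Xbp1 was higher. Phgdh was 1.85-fold lower, Trib3 1.83-fold, Asns 1.42-fold, and Psat1 1.28-fold, and Xbp1 was 1.16-fold higher. In this comparison 5 of the 10 genes were called, 1 higher and 4 lower, beside 51.8% of all tested genes (26.0% higher and 25.8% lower), so the share of the members was near that of all genes. Between the HFD + EC359 and HFD groups, 2 of the 10 were called, Herpud1 higher and Atf4 lower, beside 26.6% of all tested genes (12.7% higher and 13.9% lower). Between the HFD + EC359 and LFD groups, 7 of the 10 were called beside 58.3% (29.2% higher and 29.1% lower), with Xbp1 and Herpud1 higher and Atf4, Trib3, Asns, Psat1, and Phgdh lower. The first 2 comparisons share the HFD libraries, the first and the last share the LFD libraries, and the last 2 share the HFD + EC359 libraries.

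None of the 10 genes passed the study's cutoff (more than 2-fold, adjusted p under 0.01) in any comparison by edgeR or DESeq2, and 0 of the 10 had a fold change over 2 with an unadjusted p under 0.05 by edgeR. Among all tested genes, 5.71% passed it for HFD against LFD, 3.43% for HFD + EC359 against HFD, and 5.09% for HFD + EC359 against LFD. The groups did not overlap for 6 of the 10 genes between HFD and LFD (57.1% of all tested genes), for 4 between HFD + EC359 and HFD (41.3%), and for 8 between HFD + EC359 and LFD (62.9%). The median log2 fold change of the 10 genes was -0.13, 0.007, and -0.12 in these comparisons, and that of all tested genes was 0.007, 0.006, and 0.011.

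**Figure D2:**
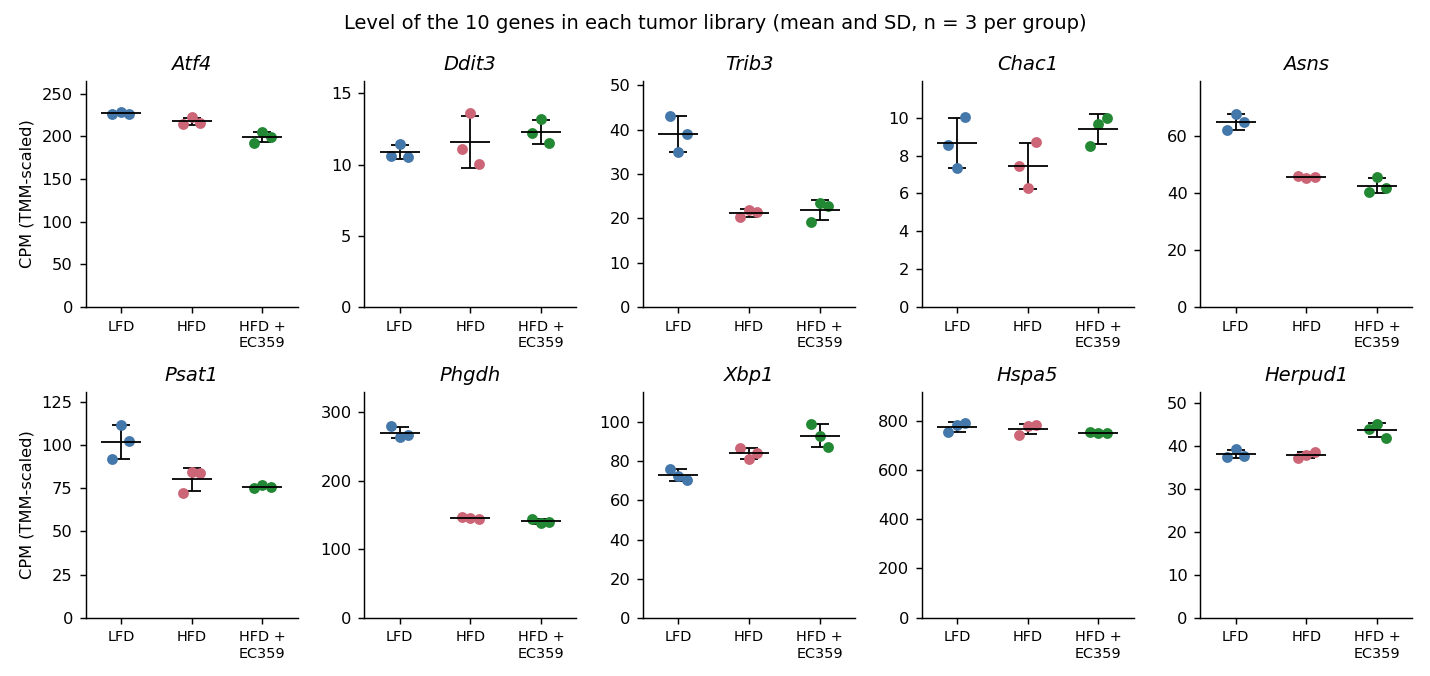
Level of each of the 10 genes in every library (points, TMM-scaled CPM on a linear axis from 0), with the mean and SD of the 3 libraries per group (lines). Trib3, Asns, Psat1, and Phgdh sit lower in both HFD groups than in the LFD group, Xbp1 sits higher in both, and Hspa5 lies between 744 and 791 CPM in all 9 libraries.

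Phgdh (mm9 chr3:98117094-98143892, minus strand) encodes phosphoglycerate dehydrogenase, the first enzyme of serine synthesis. Its level was 279.5, 263, and 267 CPM in the LFD libraries, 147, 146, and 144 CPM in the HFD libraries, and 144, 138, and 139 CPM in the HFD + EC359 libraries. Every HFD library stood well below every LFD library. Phgdh fell by 0.89 on the log2 scale in HFD against LFD (SE 0.0426, edgeR adjusted p = 1.03e-17), the most of the 10 genes. Against the HFD group, its HFD + EC359 log2 fold change was -0.05 (SE 0.0434, edgeR adjusted p = 0.407), with a bound of 2 SE from -0.14 to 0.03. The groups did not overlap, but by a margin that did not pass the test. Against the LFD group, Phgdh in the HFD + EC359 group fell by 0.94 on the log2 scale (SE 0.0421, edgeR adjusted p = 1.56e-18). The count of Phgdh was not whole in 7 libraries before rounding, since read pairs with several alignments had been split.

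Psat1 (mm9 chr19:15979613-15999549, minus strand) encodes phosphoserine aminotransferase, which acts after PHGDH. Its level was 92.2, 112, and 102 CPM in the LFD libraries, 72.4, 84.4, and 83.9 CPM in the HFD libraries, and 75.4, 76.9, and 75.8 CPM in the HFD + EC359 libraries. The LFD libraries were the highest, without overlap, and varied more than the HFD + EC359 libraries. Psat1 fell by 0.36 on the log2 scale in HFD against LFD (SE 0.0642, edgeR adjusted p = 2.18e-05) and by 0.43 in HFD + EC359 against LFD (SE 0.0632, edgeR adjusted p = 5.46e-07). With EC359 against HFD the log2 fold change was -0.08 (SE 0.0626, edgeR adjusted p = 0.410), with 2 SE spanning -0.20 to 0.05.

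Asns (mm9 chr6:7625171-7643182, minus strand) encodes asparagine synthetase. Its level was 62.1, 67.7, and 65.0 CPM in the LFD libraries, 46.0, 45.3, and 45.7 CPM in the HFD libraries, and 40.5, 45.6, and 41.9 CPM in the HFD + EC359 libraries. The LFD libraries stood above all others, while the HFD and HFD + EC359 libraries overlapped. Asns fell by 0.51 on the log2 scale in HFD against LFD (SE 0.0724, edgeR adjusted p = 4.79e-07) and by 0.61 in HFD + EC359 against LFD (SE 0.0714, edgeR adjusted p = 8.55e-09). The log2 fold change with EC359 against HFD was -0.10 (SE 0.0719, edgeR adjusted p = 0.353), with 2 SE spanning -0.24 to 0.05.

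Trib3 (mm9 chr2:152163161-152169796, minus strand) encodes a pseudokinase that is induced by ATF4 and CHOP and restrains ATF4. Its level was 43.1, 35.0, and 39.1 CPM in the LFD libraries, 20.3, 21.98, and 21.5 CPM in the HFD libraries, and 19.3, 23.4, and 22.8 CPM in the HFD + EC359 libraries. Both HFD groups lay below the LFD group and overlapped each other. Trib3 fell by 0.87 on the log2 scale in HFD against LFD (SE 0.102, edgeR adjusted p = 1.32e-08) and by 0.83 in HFD + EC359 against LFD (SE 0.0984, edgeR adjusted p = 1.13e-08). Its log2 fold change in HFD + EC359 against HFD was 0.04 (SE 0.103, edgeR adjusted p = 0.810), with 2 SE spanning -0.16 to 0.25.

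Atf4 itself (mm9 chr15:80085614-80087971, plus strand), the transcription factor of this branch, was at 226, 228, and 226 CPM in the LFD libraries, 215, 222, and 216 CPM in the HFD libraries, and 193, 205, and 199.5 CPM in the HFD + EC359 libraries. No 2 groups overlapped. In HFD against LFD its log2 fold change was -0.06 (SE 0.0413, edgeR adjusted p = 0.225), which did not pass the test. In HFD + EC359 it fell by 0.13 on the log2 scale against HFD (SE 0.0400, edgeR adjusted p = 0.0150) and by 0.19 against LFD (SE 0.0410, edgeR adjusted p = 0.000197). The call against HFD was lost without HFD replicate 2, without HFD + EC359 replicate 1, and with library totals in place of TMM, where the log2 fold change was -0.11, -0.11, and -0.10. After a correction for the GC and length trends of the libraries, Atf4 was at -0.16 against HFD (edgeR adjusted p = 0.00115) and at -0.09 against LFD (edgeR adjusted p = 0.0600).

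Ddit3 (mm9 chr10:126727849-126733344, plus strand) encodes CHOP, a transcription factor of prolonged ER stress. Its level was 10.6, 11.4, and 10.6 CPM in the LFD libraries, 11.1, 13.6, and 10.1 CPM in the HFD libraries, and 12.2, 13.2, and 11.5 CPM in the HFD + EC359 libraries. The HFD libraries spanned both other groups, and the HFD + EC359 libraries lay above the LFD libraries by a small margin. The log2 fold change was 0.09 in HFD against LFD (SE 0.147), 0.08 in HFD + EC359 against HFD (SE 0.131), and 0.17 in HFD + EC359 against LFD (SE 0.142), and none was called by edgeR (adjusted p = 0.640, 0.706, and 0.310). These SE are wider than those of the abundant genes, and 2 SE around the first value spanned -0.21 to 0.38.

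Chac1 (mm9 chr2:119176978-119180062, plus strand) encodes an enzyme that degrades glutathione. Its level was 8.58, 7.37, and 10.0 CPM in the LFD libraries, 7.43, 6.28, and 8.71 CPM in the HFD libraries, and 8.48, 9.69, and 9.99 CPM in the HFD + EC359 libraries. All 3 groups overlapped. The log2 fold change was -0.21 in HFD against LFD (SE 0.176), 0.34 in HFD + EC359 against HFD (SE 0.157), and 0.13 in HFD + EC359 against LFD (SE 0.164). None was called by edgeR (adjusted p = 0.333, 0.117, and 0.521), and 2 SE around the second value spanned 0.02 to 0.65.

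Xbp1 (mm9 chr11:5420970-5425875, plus strand) encodes the transcription factor of the IRE1 branch. Its level was 76.2, 72.4, and 70.2 CPM in the LFD libraries, 87.0, 81.4, and 84.3 CPM in the HFD libraries, and 99.1, 93.1, and 87.3 CPM in the HFD + EC359 libraries. No 2 groups overlapped, although the highest HFD library and the lowest HFD + EC359 library were close. Xbp1 rose by 0.21 on the log2 scale in HFD against LFD (SE 0.0608, edgeR adjusted p = 0.00437) and by 0.35 in HFD + EC359 against LFD (SE 0.0588, edgeR adjusted p = 5.22e-06). For HFD + EC359 against HFD the log2 fold change of 0.14 (SE 0.0545, edgeR adjusted p = 0.0511) lay just outside the threshold. It passed in 6 of 18 other settings, among them library totals and a fit without LFD replicate 1 or without HFD + EC359 replicate 3, and was 0.09 with the GC and length trend removed (edgeR adjusted p = 0.196).

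Hspa5 (mm9 chr2:34627610-34632049, plus strand) encodes BiP, the main chaperone of the ER and the usual marker of the unfolded protein response. Its level was 754, 783, and 791 CPM in the LFD libraries, 744, 777, and 781 CPM in the HFD libraries, and 756, 749, and 749.5 CPM in the HFD + EC359 libraries. The groups overlapped in every comparison. Its log2 fold change was -0.02 in HFD against LFD (SE 0.0323), -0.03 in HFD + EC359 against HFD (SE 0.0318), and -0.05 in HFD + EC359 against LFD (SE 0.0321), with edgeR adjusted p = 0.686, 0.543, and 0.217. The bound of 2 SE in HFD against LFD ran from -0.08 to 0.05. After removal of the GC and length trend Hspa5 was called, with a log2 fold change of -0.12 in HFD against LFD (edgeR adjusted p = 0.00150) and -0.19 in HFD + EC359 against LFD (edgeR adjusted p = 1.15e-06), and without LFD replicate 1 it was called in HFD + EC359 against LFD. Its GC content of 47.2% was the lowest of the 10 genes.

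Herpud1 (mm9 chr8:96910400-96919258, plus strand) encodes an ER membrane protein of the degradation machinery that both ATF4 and ATF6 induce. Its level was 37.6, 39.4, and 37.7 CPM in the LFD libraries, 37.3, 38.1, and 38.7 CPM in the HFD libraries, and 44.0, 45.3, and 41.9 CPM in the HFD + EC359 libraries. The HFD + EC359 libraries stood above all others, and the LFD and HFD libraries overlapped. Herpud1 rose by 0.20 on the log2 scale in HFD + EC359 against HFD (SE 0.0743, edgeR adjusted p = 0.0417) and by 0.19 against LFD (SE 0.0784, edgeR adjusted p = 0.0359). The log2 fold change of HFD against LFD was -0.01 (SE 0.0816, edgeR adjusted p = 0.927). The call against HFD was weak: it was lost in 11 of 18 other settings, including DESeq2 and the omission of any 1 HFD or HFD + EC359 library, with a log2 fold change between 0.16 and 0.23. The call against LFD was lost in 6 of 18, including DESeq2 and the omission of any 1 LFD library.

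**Figure D3:**
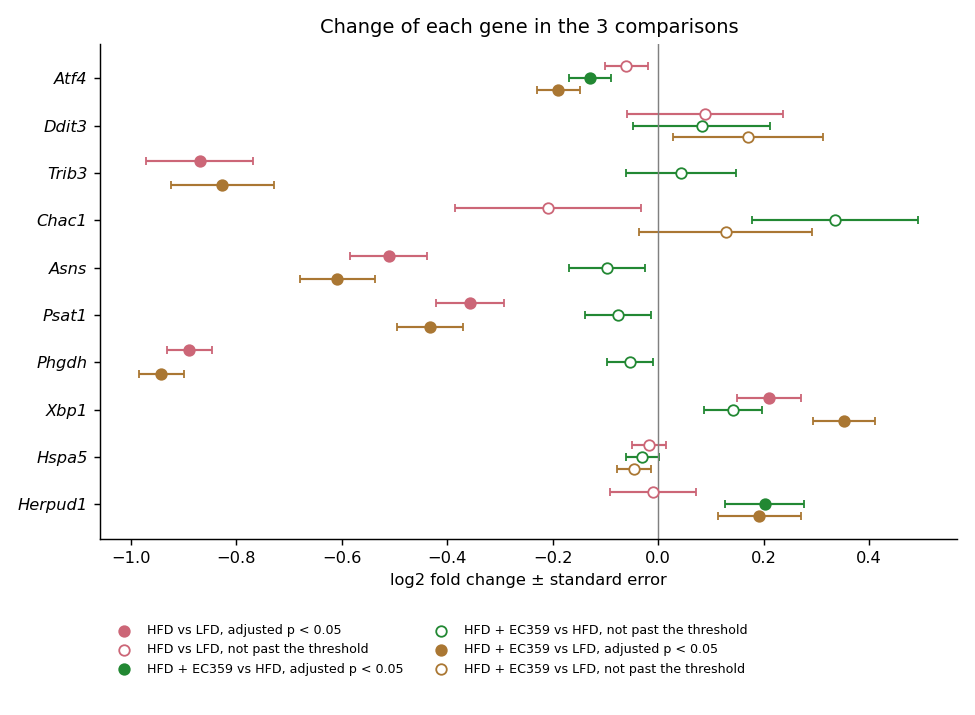
Log2 fold change with its SE (horizontal bars) for the 10 genes in the 3 comparisons, filled where the edgeR adjusted p is under 0.05. The values for HFD against LFD run from -0.89 (Phgdh) to 0.21 (Xbp1), and those for HFD + EC359 against HFD from -0.13 (Atf4) to 0.34 (Chac1, not called).

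The members were also ordered by level per kilobase of exon, which allows genes to be compared. In the LFD group Hspa5 had the highest mean level at 297 CPM per kb, followed by Phgdh at 144 and Atf4 at 132, and Chac1 had the lowest at 5.52. The ranges of Psat1 and Xbp1 (41.0 and 40.5 CPM per kb) overlapped, as did those of Herpud1 and Trib3 (20.4 and 19.0). In the HFD group the order of Phgdh and Atf4 was the opposite, with Atf4 at 126 and Phgdh at 77.8 CPM per kb, Xbp1 stood above Psat1 at 46.8 against 32.2, and Ddit3 stood above Trib3 at 13.3 against 10.4. No neighbours overlapped in the HFD group. In the HFD + EC359 group the order was that of the HFD group except that Herpud1 (23.4 CPM per kb) preceded Asns (22.2), and these overlapped.

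Profiles over the 9 libraries, centered log2 CPM, were compared by their root-mean-square distance. Trib3 and Phgdh were nearest to each other (0.115), as were Asns and Psat1 (0.114), Atf4 and Hspa5 (0.0690), and Xbp1 and Herpud1 (0.108), and the nearest to Ddit3 and to Chac1 was Herpud1 (0.118 and 0.190). Phgdh had the widest range of group means (0.94) and was farthest from Xbp1 (0.570). Among all tested genes the profiles nearest to that of Phgdh were those of Spint2 (0.0534), Tspo (0.0568), and Dbndd2 (0.0618). These distances describe the 9 libraries, which share the group differences.

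Beside the 10 genes, 79 others from 8 lists of the pathway were tested, and 3 listed genes, Fgf21, Cbs, and Derl3, did not pass the filter on low counts. With the members included, 53 of the 89 tested genes were called in HFD against LFD (20 higher and 33 lower), 28 in HFD + EC359 against HFD (8 and 20), and 59 in HFD + EC359 against LFD (24 and 35). Their median log2 fold change was -0.05, -0.03, and -0.10. The shares called, 59.6%, 31.5%, and 66.3%, stood beside 51.8%, 26.6%, and 58.3% of all tested genes.

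Of the 13 genes of serine, asparagine, and one-carbon synthesis, 7 were lower in HFD and 0 higher (53.8% called, beside 51.8% of all tested genes). Their median log2 fold change was -0.36. Shmt2, the mitochondrial serine hydroxymethyltransferase, fell by 0.47 on the log2 scale (edgeR adjusted p = 3.30e-10), and Mthfd1l, an enzyme of mitochondrial folate metabolism, fell by 0.20 (edgeR adjusted p = 0.00123). With the GC and length trend removed Shmt2 was at -0.25. Aldh18a1, the first enzyme of proline synthesis, was at -0.04 (edgeR adjusted p = 0.557). With EC359, 5 of the 13 were lower and 0 higher than in HFD (38.5% called, beside 26.6% of all tested genes). Among the 5 were Mthfd1l at -0.29, Aldh18a1 at -0.17, and Shmt2 at -0.12 (edgeR adjusted p = 3.64e-05, 0.0242, and 0.0493). The 3 members of this list, Phgdh, Psat1, and Asns, were not among those 5, the calls of Shmt2 and Aldh18a1 were lost in 13 and 5 of 18 other settings, and DESeq2 called 2 in place of 5. The count was 2 if HFD replicate 1 or HFD + EC359 replicate 2 was omitted, and 3 if HFD replicate 3 or HFD + EC359 replicate 3 was omitted.

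The cytosolic aminoacyl-tRNA synthetases, which charge tRNAs and include ATF4 targets, had 7 of 12 lower and 1 higher in HFD, with a median of -0.21. This was 66.7% called, beside 51.8% of all tested genes. Aars fell by 0.45 on the log2 scale, Gars by 0.36, and Nars by 0.20 (edgeR adjusted p = 8.49e-11, 3.77e-08, and 0.000500). Aars was at -0.28 and Nars at -0.32 after removal of the GC and length trend. Against HFD, 4 of the 12 were lower and 0 higher with EC359 (33.3% called, beside 26.6% of all tested genes). Among the 4 were Aars at -0.27 and Nars at -0.20 (edgeR adjusted p = 4.88e-06 and 0.00138). With library totals 3 were lower and 1 higher.

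Of the 9 amino acid transporters linked to ATF4, 6 were lower and 1 higher in HFD (77.8% called, beside 51.8% of all tested genes). Slc38a2, which imports neutral amino acids, and Slc7a5, the light chain of the leucine transporter, were the most abundant of the lowered, at -0.10 and -0.11 (edgeR adjusted p = 0.0160 and 0.0251). Both calls were lost with library totals and without LFD replicate 3, and that of Slc7a5 also without HFD replicate 1 or 2, and removal of the GC and length trend put Slc7a5 at 0.07 and Slc38a2 at -0.37 (edgeR adjusted p = 0.171 and 3.33e-11). Slc3a2, the heavy chain that pairs with Slc7a5, was at 0.02 (edgeR adjusted p = 0.710), and was called at 0.14 with that trend removed (edgeR adjusted p = 0.00689). The other 4 lowered transporters fell more. Slc1a5 was at -0.52, Slc6a9 at -0.40, Slc1a4 at -0.30, and Slc7a1 at -0.19 (edgeR adjusted p = 3.63e-11, 0.000214, 0.000759, and 0.00156). These 4 were named after their values were seen and were not followed gene by gene through the other settings. The higher one, Slc7a11, the cystine importer, was named after its values were seen, as 1 of 2 pathway genes past the study's cutoff in this comparison. It rose by 1.18 on the log2 scale (edgeR adjusted p = 4.71e-17), from 50.5 ± 2.34 CPM (SD, n = 3) to 115 ± 2.68 CPM (SD, n = 3), was at 0.77 with the trend removed, which is under a fold of 2, and fell by 0.42 in HFD + EC359 against HFD (edgeR adjusted p = 7.81e-08). In that comparison 4 of the 9 transporters were higher and 2 lower (66.7% called, beside 26.6% of all tested genes). Slc7a5 was at 0.16 and Slc38a2 at 0.11 (edgeR adjusted p = 0.00296 and 0.0209). The call of Slc38a2 was lost in 8 of 18 other settings. With DESeq2, without any 1 HFD library, or without HFD + EC359 replicate 1 or 3, 3 of the 9 were called in place of 6.

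Among the 12 stress transcription factors and eIF2 phosphatase subunits, 3 were higher and 5 lower in HFD (66.7% called, beside 51.8% of all tested genes). Atf5, a relative of ATF4, fell by 0.79 on the log2 scale, Cebpb, a C/EBP partner of ATF4, fell by 0.41, and Ppp1r15a (GADD34), which directs eIF2 dephosphorylation, fell by 0.52 (edgeR adjusted p = 1.46e-12, 3.83e-10, and 9.78e-05). Once the trend in GC content and length was removed, Atf5 was at -0.51, Cebpb at -0.08, and Ppp1r15a at -0.31. Nupr1 and Atf3, both stress-induced transcription regulators, were at 0.14 and 0.18 (edgeR adjusted p = 0.102 and 0.171), and Nupr1 was called with library totals and, at 0.26, with that trend removed (edgeR adjusted p = 0.00281). Compared with HFD, EC359 tumors had 1 higher and 5 lower, with Cebpb at -0.22 and Atf5 at -0.21 (edgeR adjusted p = 6.46e-05 and 0.0104). Cebpb was at -0.05 there with the GC and length trend removed (edgeR adjusted p = 0.231), and Atf5 at -0.14 (edgeR adjusted p = 0.0412). The call of Atf5 was lost with DESeq2 and without HFD replicate 1 or HFD + EC359 replicate 1, and without the latter the count was 3 in place of 6.

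Of the 8 tested ATF4 feedback and cell fate targets, 2 were higher and 2 lower in HFD. Ddit4 (REDD1), an inhibitor of mTORC1, fell by 0.31 on the log2 scale, and Eif4ebp1, a repressor of translation, rose by 0.33 (edgeR adjusted p = 1.70e-05 and 0.00103). Sesn2, another inhibitor of mTORC1, was at -0.26 (edgeR adjusted p = 0.0756). Once the GC and length trend was removed, Ddit4 was at -0.08 (edgeR adjusted p = 0.191) and Eif4ebp1 at 0.55. Between HFD + EC359 and HFD, 0 of the 8 were called by edgeR or DESeq2, and 3 had an unadjusted p under 0.05 by edgeR. Of all tested genes, edgeR called 26.6% there.

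The 6 stress sensors were split in HFD against LFD, with 2 higher and 2 lower (66.7% called, beside 51.8% of all tested genes). Eif2ak3 (PERK) fell by 0.23 and Eif2ak1 (HRI) by 0.24 on the log2 scale, whereas Eif2ak4 (GCN2) rose by 0.22 and Eif2ak2 (PKR) by 0.24 (edgeR adjusted p = 0.0292, 0.00686, 0.00167, and 0.0246). Ern1 (IRE1) was at -0.02 and Atf6 at 0.12 (edgeR adjusted p = 0.757 and 0.111), and Atf6 was called with library totals. The call of Eif2ak3 was lost in 6 of 18 other settings, namely library totals, DESeq2, and the omission of LFD replicate 1 or of any 1 HFD library. Without LFD replicate 1 or without HFD replicate 3, 2 of the 6 were called in place of 4, and Eif2ak2 was at -0.02 once the GC and length trend was removed. In HFD + EC359 against HFD 0 of the 6 were called by edgeR or DESeq2, and 0 had an unadjusted p under 0.05 by edgeR. The share of all tested genes called by edgeR there was 26.6%.

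Of the 17 ER chaperones and folding enzymes, 9 were higher and 1 lower in HFD, with a median of 0.11, but with the GC and length trend removed 5 were higher and 5 lower. Calr, a calcium-binding lectin chaperone, rose by 0.24 on the log2 scale (edgeR adjusted p = 1.02e-06) and was at 0.28 with the trend removed. Hsp90b1 (GRP94), the HSP90 of the ER, rose by 0.29 (edgeR adjusted p = 7.02e-07) but was at 0.03 with the trend removed. P4hb, a protein disulfide isomerase, was at 0.05 (edgeR adjusted p = 0.245), but was called at 0.12 with the trend removed (edgeR adjusted p = 0.00196) and with library totals. Dnajb9, a co-chaperone of BiP and the other pathway gene past the study's cutoff, also named after its values were seen, rose by 1.18, from 6.63 ± 0.435 to 15.1 ± 1.58 CPM (SD, n = 3; edgeR adjusted p = 9.26e-08), and was at 0.76 with the trend removed. With EC359, 1 was higher and 4 were lower than in HFD (29.4% called, near the 26.6% of all tested genes). Among the 4 were Hsp90b1 at -0.16 and P4hb at -0.11 (edgeR adjusted p = 0.00296 and 0.00973). With the trend removed Hsp90b1 was at -0.26, and the call of P4hb was lost with library totals and without HFD replicate 1 or HFD + EC359 replicate 3. In HFD + EC359 against LFD the pathway genes past the study's cutoff were Atf5 (lower) and Dnajb9 (higher).

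Of the 12 tested genes of ER-associated degradation, 2 were higher and 3 lower in HFD (41.7% called, under the 51.8% of all tested genes). After removal of the GC and length trend 1 was higher and 6 were lower. Derl1, a channel component, and Os9, a lectin, were at -0.10 and -0.10 (edgeR adjusted p = 0.0628 and 0.120), and with that trend removed Derl1 was called at -0.14 (edgeR adjusted p = 0.00817). In EC359 tumors 2 were higher and 0 lower than in HFD (16.7% called, under the 26.6% of all tested genes). The 2 were Herpud1 and Sel1l, a partner of the ubiquitin ligase HRD1 that was named because the count is small, with Sel1l at 160, 155, and 172 CPM as group means in LFD, HFD, and HFD + EC359. Without any 1 HFD or HFD + EC359 library, 0 or 1 of the 12 were called.

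**Figure D4:**
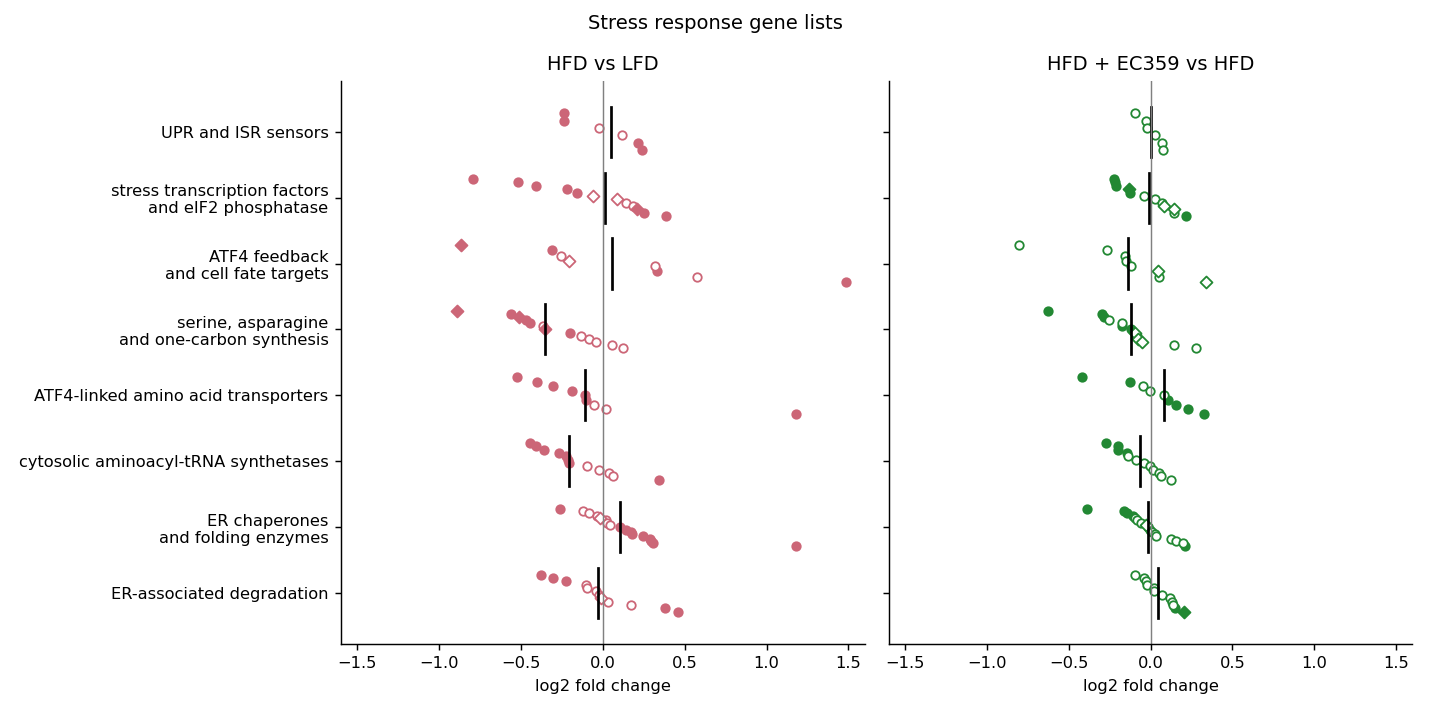
Log2 fold change of every tested gene of the 8 pathway lists in HFD against LFD (left) and HFD + EC359 against HFD (right), filled where the edgeR adjusted p is under 0.05, with the 10 members as diamonds and the median of each list as a bar. The 13 synthesis genes and 12 tRNA synthetases lie mostly below 0 on the left, and the points near 1.18 are Slc7a11 and Dnajb9. The point near 1.5 is Gdf15, a secreted stress factor, at 0.482 CPM in the LFD group and 1.35 CPM in the HFD group. It had 2, 1, and 5 counts in the LFD libraries, so its fold change rests on few reads.

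Cell type markers differed between the groups as well. The summed level of 7 epithelial markers was 2054 to 2220.0 CPM in the LFD libraries, 771 to 786 CPM in the HFD libraries, and 1142 to 1168 CPM in the HFD + EC359 libraries. Of these, 6 of 6 tested were lower in HFD against LFD. That of 7 fibroblast markers was 7744 to 9210.3, 13484 to 14231, and 3971 to 4076 CPM, and 7 of 7 were higher in HFD against LFD, while 1 was higher and 4 lower in HFD + EC359 against HFD. The 4 were Lum and the collagens Col1a1, Col1a2, and Col3a1, which made up most of the sum. Pdgfra was higher, at 374 and 475 CPM as means of HFD and HFD + EC359, and Dcn and Pdgfrb were not called. Endothelial markers (5 genes) summed to 154 to 166, 303 to 326, and 266 to 277 CPM, and 5 of 5 were higher in HFD against LFD. Macrophage markers (6 genes) summed to 1309.8 to 1342, 1246 to 1259, and 1577 to 1596 CPM. Of these 6, 3 were higher and 1 lower in HFD against LFD, the lower one being Mrc1 (567 and 443 CPM as means of LFD and HFD), and 6 were higher in HFD + EC359 against HFD. Plasma and B cell markers (8 genes) summed to 1.57 to 1.94, 7.07 to 7.81, and 1.80 to 3.83 CPM, and the 1 that passed the filter, Igj, had means of 0.228, 4.95, and 0.787 CPM. Epidermis markers (5 genes) summed to 142 to 154, 107 to 114, and 128 to 134 CPM. Krt77 was higher and Krt1 and Lor lower in HFD against LFD, and 3 were higher in HFD + EC359 against HFD. Whether the epithelial markers came from tumor cells or from other epithelium was not tested. No marker of these lists was at 0 in all libraries. The epithelial sum lay lower in HFD, as did Phgdh, Trib3, Asns, and Psat1. In HFD + EC359 against HFD these 4 genes were not called, and 5 of the 6 tested epithelial markers were higher. As group means in LFD, HFD, and HFD + EC359, Krt14 was at 761, 40.6, and 237 CPM and Krt5 at 252, 30.5, and 143 CPM. In the same order Krt8 was at 599, 408, and 442 CPM and Krt18 at 485, 292, and 304 CPM. Krt18 was not called in HFD + EC359 against HFD, but was called lower in both groups against LFD. The part of cell makeup in the results was not tested, and fewer cells of a type and less RNA per cell cannot be told apart in whole tumors.

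GC content also moved with the groups. The mean log2 deviation from the 9-library mean was taken over genes with at most 45.8% and with at least 55.4% GC content. The first minus the second was -0.54 to -0.32 in the LFD libraries, 0.10 to 0.16 in the HFD libraries, and 0.25 to 0.30 in the HFD + EC359 libraries. With the trend on GC content and length removed, the log2 fold change in HFD against LFD was -0.66 for Phgdh, -0.63 for Trib3, -0.57 for Asns, -0.35 for Psat1, and 0.25 for Xbp1, and each was still called by edgeR. The 5 calls of this comparison held in all 18 other settings, apart from the study's cutoff. In HFD + EC359 against HFD the calls of Herpud1 and Atf4 depended on the setting, as shown for each gene.

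**Figure D5:**
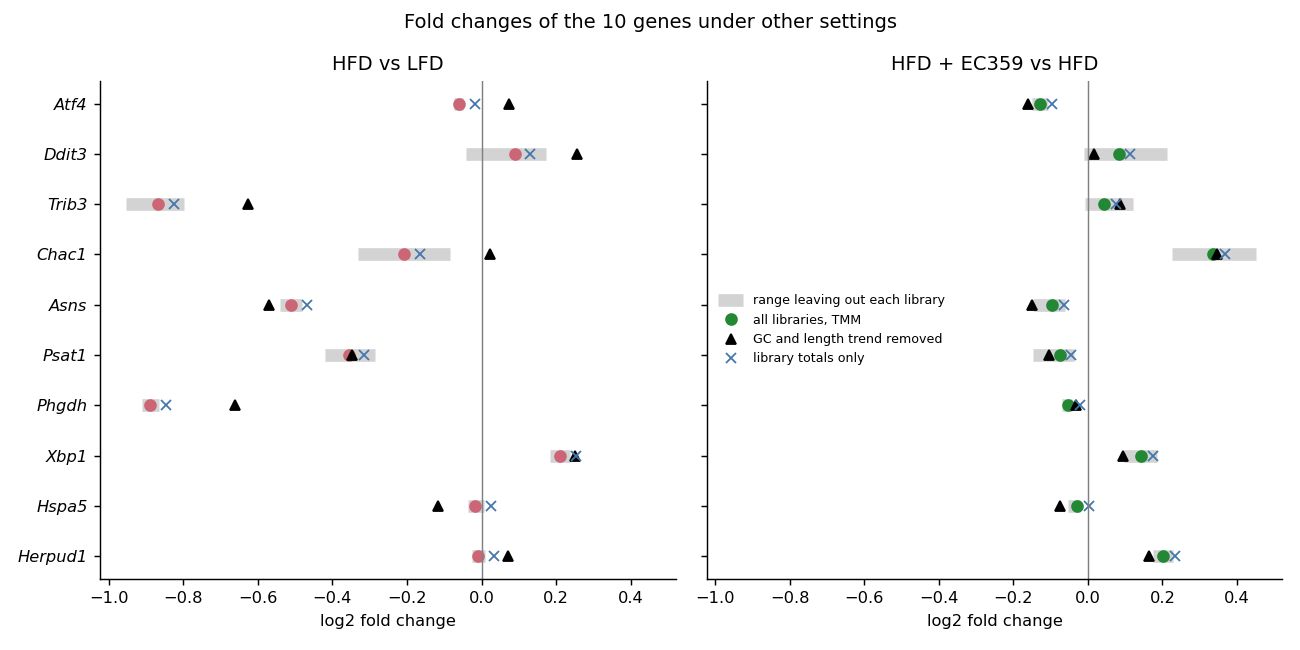
Log2 fold change of the 10 genes with all libraries and TMM (circles, red at left and green at right), with the GC and length trend removed (triangles), with library totals only (crosses), and the range when each library is left out (grey bars). For HFD against LFD, Phgdh, Trib3, Asns, and Psat1 stay below 0 and Xbp1 above 0 in each, while Atf4, Chac1, Hspa5, Herpud1, and Ddit3 change sign in at least 1.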

How the data were processed

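The authors sequenced 9 stranded mRNA libraries of tumors as read pairs. The deposited values are expected counts per gene without normalization: per the file headers, featureCounts 1.5.0-p1 counted read pairs on the mm9 UCSC annotation by exon, reverse-stranded, with a minimum mapping quality of 2, and split pairs with several alignments or genes into fractions. The submitters' processing notes also name HISAT2 2.1.0 and bcl2fastq, whereas the methods name TopHat2, HTSeq, and DESeq. The expected counts were rounded to whole numbers, and 1.19% to 3.55% of the genes of a library held fractions. The planned count test was kept.

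The software was edgeR 4.0.16 and DESeq2 1.42.0 in R 4.3.3. Genes were filtered with filterByExpr by group and scaled with TMM factors, and a quasi-likelihood model with the 3 groups and no covariate gave the 3 comparisons. The SE of a log2 fold change is its size divided by the square root of F. No exact permutation test was run, since the smallest two-sided p for 3 libraries against 3 is 0.1. On simulated counts of 13205 genes with a planted 2-fold change in 200, 185 were found in HFD against LFD with 12 false calls, and 186 in HFD + EC359 against HFD with 15. These counts were drawn from the model fitted to these libraries, so high recovery was built in. They say nothing of smaller changes, or of false calls if the libraries are not separate tumors. The bounds of 2 SE include the spread between libraries of a group, whereas the limit of 3 counts covers counting error only. The values gave no sign that replicate numbers pair the libraries, which does not exclude pairing (see the closing section for the values).

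The 10 genes, the pathway lists, and the tests were chosen with earlier results of these data known. Besides the 10 genes, the text names the 3 genes with the highest mean CPM per kb in each list, all sensors, Atf3, Ppp1r15a, and the genes of nearest profile, except that 1 gene under this rule is not reported here. Others were named after their values were seen and are marked. Alternative settings were RLE factors, library totals, 2 other filters (at least 1 count in any library, at least 10 counts in every library), DESeq2, a replicate block, removal of each library's spline trend on GC content and length (mm9 sequence, 22549 genes) alone or with the block, the 6 libraries of a comparison alone, each library left out, and the study's cutoff of more than 2-fold with an adjusted p under 0.01. Their use for the lists and the other named genes was added after seeing the data.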

Additional observations from a re-analysis of the deposited data

How the results depend on the processing

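The counts of members called between HFD and LFD, between HFD + EC359 and HFD, and between HFD + EC359 and LFD were 5, 2, and 7, and 0 in each with the study's cutoff. Leaving out 1 library gave 5 to 5, 0 to 3, and 6 to 7. For HFD + EC359 against HFD, the count was 0 without HFD replicate 2 or HFD + EC359 replicate 1, and 1 with all genes with at least 1 count, with DESeq2, with the GC and length trend removed, and with that and the replicate block together. The replicate block alone gave 5, 2, and 7, with Xbp1 called in HFD + EC359 against HFD (0.14, edgeR adjusted p = 0.0397) and Herpud1 and Shmt2 lost (0.20 and -0.12, edgeR adjusted p = 0.05004 and 0.0506), and Sesn2 called in HFD against LFD (-0.26, edgeR adjusted p = 0.0410). It called 1 gene of ER-associated degradation in place of 2 there and changed no other call of a member or named gene. The numbers gave no sign of pairing: the deviations of libraries with the same number correlated at -0.030 to 0.017. Those of libraries with different numbers correlated at -0.023 to 0.027.

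With library totals the called genes that were higher in HFD + EC359 against HFD made up 58.3% in place of 47.8% of all calls. The same setting turned the sign of the log2 fold change, to 0.0261 for Hspa5, 0.0324 for Herpud1, and 0.0188 for Ern1 in HFD against LFD, and to 0.00211 and 0.0282 for Hspa5 in HFD + EC359 against HFD and LFD.

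In HFD against LFD, removal of the GC and length trend turned the sign for Atf4 (0.0738, or 0.0751 with the replicate block), Chac1 (0.0222, or 0.0243 with the replicate block), Herpud1 (0.0722, or 0.0740 with the replicate block), Slc7a5 (0.0676, or 0.0679 with the replicate block), Aldh18a1 (0.0571, or 0.0561 with the replicate block), Ern1 (0.10, or 0.10 with the replicate block), Os9 (0.0589, or 0.0600 with the replicate block), Sesn2 (0.00921, or 0.00764 with the replicate block), Atf6 (-0.0918, or -0.0949 with the replicate block), and Eif2ak2 (-0.0204, or -0.0183 with the replicate block).

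Leaving out 1 library turned the sign for some genes that had not been called. The ranges in HFD against LFD were -0.0416 to 0.17 for Ddit3, -0.0373 to 0.00608 for Hspa5, -0.0249 to 0.00856 for Herpud1, -0.0755 to 0.00608 for Aldh18a1, -0.0713 to 0.0146 for Ern1, and -0.0100 to 0.0421 for Slc3a2. In HFD + EC359 against HFD they were -0.00972 to 0.21 for Ddit3 and -0.00805 to 0.12 for Trib3. Of the genes whose sign turned in any setting, Slc7a5 and Eif2ak2 had been called in HFD against LFD. The causes were not tested.

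Of the 21 other genes followed through the settings and called in HFD against LFD, 15 kept call and sign in all settings, and of the 12 called in HFD + EC359 against HFD, 6 did. At 3 libraries per group and 6.28 to 13.6 CPM, Chac1 and Ddit3 had the widest SE of the 10 genes.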

Other observations

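Within the lists, other genes with called values, named after those values were seen, differed in HFD + EC359 against HFD. Ero1l, the oxidase that reoxidizes protein disulfide isomerase, was at 281 CPM as the mean of the HFD libraries and 214 CPM in the HFD + EC359 libraries (276 CPM in LFD). Aldh1l2, a mitochondrial folate enzyme, was at 12.3 CPM in HFD and 7.97 CPM in HFD + EC359 (11.8 CPM in LFD). Slc1a4, a neutral amino acid transporter, was at 44.6 CPM in HFD and 55.8 CPM in HFD + EC359 (55.03 CPM in LFD), and Pdia6, a disulfide isomerase, at 309.6 and 358 CPM (281 CPM in LFD).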
